A study of Homo sapiens with 4 samples.

Results

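The genes described here are 9 genes of the MHC class I pathway in AGS cells, an established human gastric adenocarcinoma line of epithelial origin. They were chosen by name from a table of 47251 gene identifiers, namely HLA-B, HLA-C, HLA-E, B2M, TAP1, TAPBP, PSMB8, PSMB9 and PSMB10. Each name had 1 identifier, and all 9 passed the filter on low values. RNA was sequenced in 4 libraries. In the sh-MFAP2 group (2 libraries) the cells carried a single short hairpin RNA (sh1) against MFAP2, a component of the extracellular microfibrils, and in the control group (2 libraries) they carried a scrambled control hairpin. All cells of both groups had been infected with lentivirus, which also carried GFP, selected with puromycin as stable lines and grown in DMEM with serum. Because only 1 hairpin was sequenced, an effect of MFAP2 loss cannot be told apart from another effect of that hairpin or of the selected line. Nothing in the labels says that the replicates came from separate cultures, so the p-values measure the spread between these libraries, which may be technical. In bulk RNA, fewer cells expressing a gene and less RNA per cell cannot be told apart.

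MHC class I molecules show short peptides from inside the cell to cytotoxic T cells and natural killer cells. Peptides are cut by the proteasome, in part by the immunoproteasome, in which PSMB8, PSMB9 and PSMB10 take the places of the constitutive catalytic subunits PSMB5, PSMB6 and PSMB7. They are carried into the endoplasmic reticulum by the transporter of TAP1 and TAP2, and are loaded with the help of tapasin, the product of TAPBP, onto a heavy chain (such as HLA-B, HLA-C or the nonclassical HLA-E) that is paired with the light chain B2M. Many of these genes are known to respond to interferons, and reduced class I expression is a known route by which carcinoma cells evade T cells.

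The values are taken as FPKM, fragments scaled by transcript length and library depth, since the tables name no unit. The spacing of low values implied between 5.48e+07 and 7.51e+07 reads per library, but too few values lay on whole steps to give the reads behind a single gene. MFAP2 stood at 0 FPKM under sh-MFAP2 in each library and at 0.0116 and 0.0138 FPKM in the controls, too low in every library to give a fold change or to check the labels by the mRNA of the target. Among the epithelial markers, 4 of 5 were above 1 FPKM in all 4 libraries, with a summed level of 1890.3 to 1936 FPKM in sh-MFAP2 and 1732 to 1961 FPKM in control. CDH1, the epithelial cadherin, was the exception, at 0.584 and 0.853 FPKM against 1.25 and 1.15 FPKM. Markers of leukocytes were under 1 FPKM in all libraries for 7 of 8 genes, with CD3D and MS4A1 among those at 0 throughout, and those of endothelial cells for 3 of 3.

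Of the 9 genes, 7 lie on chromosome 6 in or near the MHC, while B2M is on chromosome 15 and PSMB10 on chromosome 16. In GRCh38 with GENCODE 29, all are protein-coding genes. On the minus strand of chromosome 6 lie HLA-C (ENSG00000204525) at chr6:31268749-31272130, HLA-B (ENSG00000234745) at chr6:31269491-31357188, PSMB8 (ENSG00000204264) at chr6:32840717-32844703, TAP1 (ENSG00000168394) at chr6:32845209-32853978 and TAPBP (ENSG00000231925) at chr6:33299694-33314387. HLA-E (ENSG00000204592) at chr6:30489467-30494205 and PSMB9 (ENSG00000240065) at chr6:32844136-32859585 lie on the plus strand, as does B2M (ENSG00000166710) at chr15:44711487-44718877. PSMB10 (ENSG00000205220) is on the minus strand at chr16:67934502-67937087. By their RefSeq starts, TAP1 and PSMB9 are transcribed away from each other, with 487 bases between these starts. The GENCODE 29 span of PSMB9 given above is longer, beginning within PSMB8 and holding all of TAP1.

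The region before the start of a gene is where interferon-activated factors act on this family, so the promoters were read for 3 short sequences on both strands. The RefSeq table (GRCh38.p14) held 10 windows for 8 of the 9 genes, each of 250 bases before and 50 after the start. HLA-E was not matched. An ISRE-like match, GAAA and GAAA separated by any 2 bases, is the core of the element bound by interferon-activated IRF and STAT complexes. Such a match was present in windows of 5 genes (B2M, TAP1, TAPBP, PSMB8 and PSMB10), and in 3.57% of the 35116 windows of the table. Matches on both strands were counted, and those that overlap were counted each. The 250 bases before the start are shown for the 4 of these genes with the match before the start. PSMB9 and HLA-B, which had no exact ISRE-like match, follow. An element with other letters was not searched for and is not marked. Capitals mark the ISRE-like and CCAAT matches, read 5′ to 3′ on the strand of the gene.
B2M chr15:44711267-44711516 (+): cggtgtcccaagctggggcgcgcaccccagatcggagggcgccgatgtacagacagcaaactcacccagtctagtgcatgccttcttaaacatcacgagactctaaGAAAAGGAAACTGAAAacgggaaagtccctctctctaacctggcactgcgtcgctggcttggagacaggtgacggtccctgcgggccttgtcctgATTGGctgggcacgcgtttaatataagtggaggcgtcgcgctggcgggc
TAP1 chr6:32853705-32853954 (-): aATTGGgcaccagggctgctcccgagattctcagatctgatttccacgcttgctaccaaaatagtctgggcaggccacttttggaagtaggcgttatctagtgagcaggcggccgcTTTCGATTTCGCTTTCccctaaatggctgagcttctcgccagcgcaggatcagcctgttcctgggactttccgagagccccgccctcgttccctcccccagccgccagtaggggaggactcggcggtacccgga
TAPBP chr6:33314079-33314328 (-): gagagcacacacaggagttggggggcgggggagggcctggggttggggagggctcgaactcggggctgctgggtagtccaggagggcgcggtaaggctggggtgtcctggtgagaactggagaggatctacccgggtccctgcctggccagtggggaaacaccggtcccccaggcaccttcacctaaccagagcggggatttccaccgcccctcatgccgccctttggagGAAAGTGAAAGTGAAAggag
PSMB10 chr16:67936851-67937100 (-): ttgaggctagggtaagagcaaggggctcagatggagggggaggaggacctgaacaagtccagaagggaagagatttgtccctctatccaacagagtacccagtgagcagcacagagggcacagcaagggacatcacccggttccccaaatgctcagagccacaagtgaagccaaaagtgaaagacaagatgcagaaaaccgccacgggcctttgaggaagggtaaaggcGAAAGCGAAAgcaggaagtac
PSMB9 chr6:32853942-32854191 (+): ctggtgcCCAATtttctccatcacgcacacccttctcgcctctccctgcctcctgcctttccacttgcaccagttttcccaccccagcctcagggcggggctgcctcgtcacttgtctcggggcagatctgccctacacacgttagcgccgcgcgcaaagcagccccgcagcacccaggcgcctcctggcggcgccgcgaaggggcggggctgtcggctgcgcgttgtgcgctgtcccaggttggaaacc
HLA-B chr6:31357180-31357429 (-): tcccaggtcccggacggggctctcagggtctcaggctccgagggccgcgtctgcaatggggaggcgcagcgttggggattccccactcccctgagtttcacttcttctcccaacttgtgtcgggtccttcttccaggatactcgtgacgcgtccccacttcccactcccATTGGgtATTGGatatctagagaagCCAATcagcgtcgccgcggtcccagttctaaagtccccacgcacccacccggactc
With the start base counted as 0, B2M had a pair of overlapping ISRE-like matches from -144 to -129, TAP1 a pair from -134 to -119, TAPBP a pair from -20 to -5 and PSMB10 a single match from -21 to -12. In PSMB8 the match ran across the start of the second of its windows, from -4 to 5. CCAAT, a common promoter sequence, was present in windows of 5 genes (HLA-B, HLA-C, B2M, TAP1 and PSMB9), against 34.6% of all windows. TTC and GAA separated by any 3 bases, the core of the element bound by STAT dimers, was present in windows of 2 genes (TAP1 and PSMB8), against 7.66% of all windows. These are matches of letters in a window and say nothing of binding in AGS cells.

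At p under 0.01 and adjusted p under 0.05 in limma with Benjamini-Hochberg adjustment, 0 of the 9 genes were called, while 27 of the 9873 genes tested (0.273%) were. The lowest adjusted p among the 9 in limma was 0.283, for PSMB10, and at an unadjusted p under 0.05 the count was 3 (TAP1, PSMB9 and PSMB10), all higher in sh-MFAP2, against 3.89% of all genes in that direction. That number was 5 under quantile normalization and 5 under median of ratios scaling. Of the 9873 genes, 533 and 475 were then higher at that threshold, against 384 in the main fit. The number of members also fell with some libraries left out. None of the 9 was lower at an unadjusted p under 0.05, against 8.41% of all genes. In 6 genes (HLA-B, HLA-C, TAP1, PSMB8, PSMB9 and PSMB10) both sh-MFAP2 libraries lay above both controls, which held for 17.5% of all genes. In 1 gene (TAPBP) both lay below, which held for 31.4% of all genes. HLA-E and B2M overlapped between the groups. The median log2 fold change of the 9 genes was 0.51, and that of all genes tested was -0.05, on the log2(FPKM + 1) scale used throughout.

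**Figure D1:**
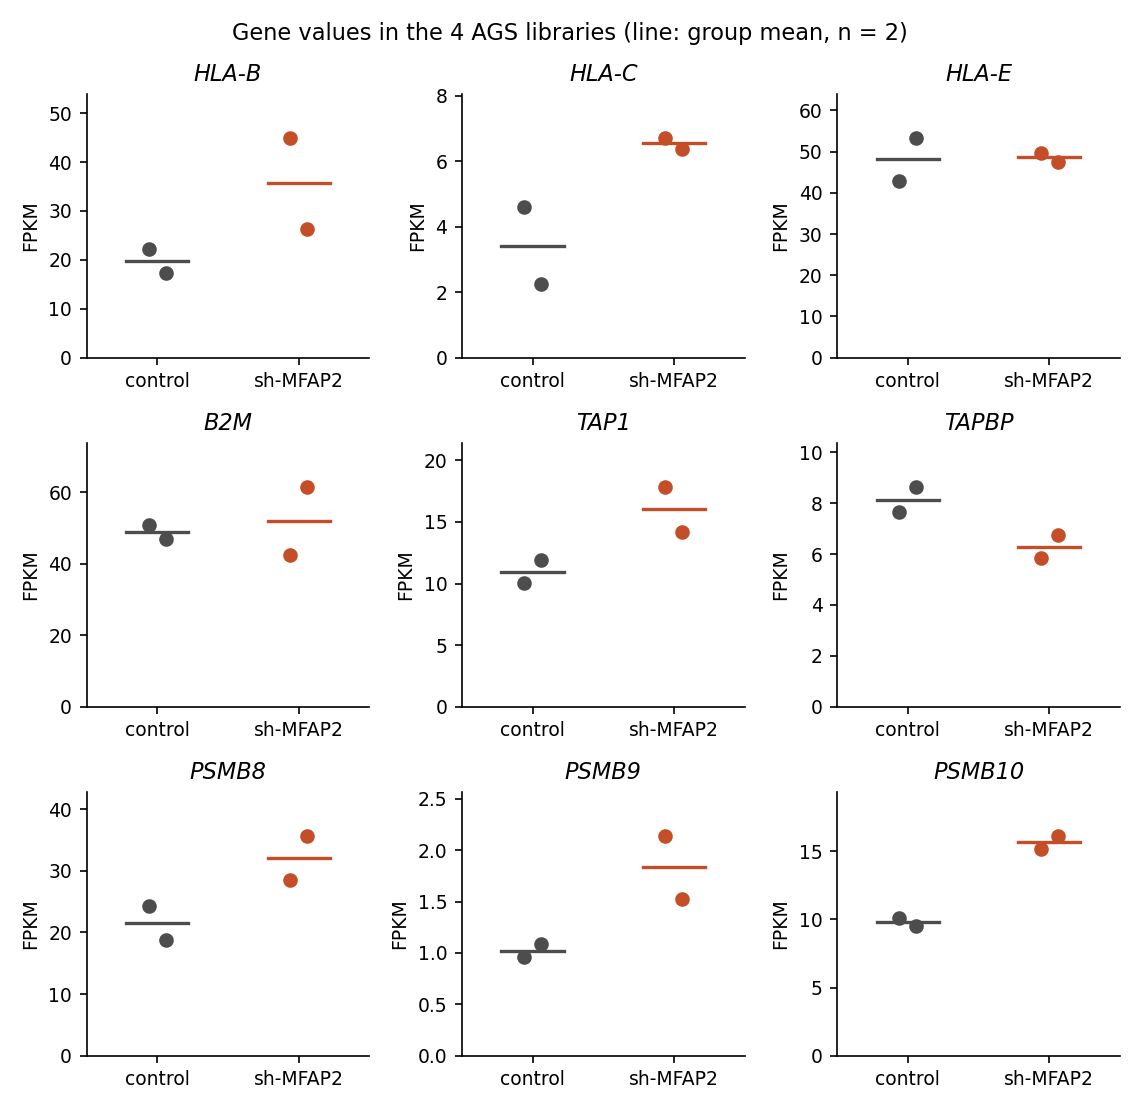
FPKM (vertical axis, from 0) of each of the 9 genes in the 2 control and the 2 sh-MFAP2 libraries (points), with the mean of each group as a line. The sh-MFAP2 points lie above both controls for 6 genes, below both for TAPBP, between them for HLA-E, and on either side of them for B2M.

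Among the heavy chains, HLA-B, a classical chain that presents peptides to T cells, was at 45.0 and 26.3 FPKM under sh-MFAP2 against 22.1 and 17.4 FPKM in control. Both sh-MFAP2 values were the higher, but sh-MFAP2 replicate 2 was closer to control replicate 1 than to its own replicate. The log2 fold change was 0.78 (SE 0.315, adjusted p = 0.422 in limma), and without sh-MFAP2 replicate 1 it was 0.41. HLA-C, the classical chain that is also a ligand of inhibitory receptors on natural killer cells, was at 6.72 and 6.38 FPKM against 4.61 and 2.24 FPKM, a log2 fold change of 0.83 (SE 0.306, adjusted p = 0.414 in limma). The gap between the controls of HLA-C was wider than that between the higher control and the sh-MFAP2 libraries, and without control replicate 2 the log2 fold change was 0.43.

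HLA-E, the nonclassical chain read by the NKG2A receptor, was at 49.8 and 47.5 FPKM under sh-MFAP2 against 42.8 and 53.4 FPKM in control. The sh-MFAP2 values lay between the controls, with a log2 fold change of 0.02 (SE 0.153, adjusted p = 0.957 in limma) and a 95% interval of -0.41 to 0.46. B2M, the light chain that all class I heavy chains need to reach the surface, was at 42.5 and 61.6 FPKM against 50.7 and 47.0 FPKM. Here the sh-MFAP2 libraries lay on either side of the controls, and the log2 fold change was 0.06 (SE 0.219, adjusted p = 0.908 in limma; 95% interval -0.56 to 0.69). Neither interval leaves out changes of the size seen in TAPBP, and that of B2M does not leave out those of TAP1, PSMB8 and PSMB10.

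In peptide transport and loading, the pair of members differed in direction. TAP1, one subunit of the peptide transporter, was at 17.9 and 14.2 FPKM under sh-MFAP2 against 10.0 and 11.9 FPKM in control, so that its groups did not overlap. The log2 fold change was 0.51 (SE 0.172, adjusted p = 0.399 in limma). TAPBP, which encodes the chaperone tapasin that holds the heavy chain at the transporter, was at 5.84 and 6.74 FPKM against 7.63 and 8.65 FPKM, below both controls. Its log2 fold change was -0.33 (SE 0.130, adjusted p = 0.418 in limma), and leaving out 1 library at a time gave -0.42 to -0.24.

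All 3 immunoproteasome subunits had higher values in both sh-MFAP2 libraries than in either control. PSMB10 was at 15.2 and 16.1 FPKM under sh-MFAP2 against 10.1 and 9.51 FPKM in control. The gap between the groups was wide against the gap within either, with a log2 fold change of 0.63 (SE 0.106, adjusted p = 0.283 in limma). PSMB8 was at 28.5 and 35.7 FPKM against 24.3 and 18.7 FPKM, and the log2 fold change was 0.56 (SE 0.200, adjusted p = 0.407 in limma). The lower sh-MFAP2 library was within a few FPKM of the higher control. PSMB9 had the lowest values of the 9 genes, 2.14 and 1.53 FPKM against 0.960 and 1.09 FPKM, with a log2 fold change of 0.48 (SE 0.154, adjusted p = 0.395 in limma). At so low a level the added 1 FPKM compresses the change, and with 0.1 FPKM added the log2 fold change of PSMB9 was 0.77. Leaving out 1 library at a time kept PSMB10 between 0.58 and 0.67, PSMB8 between 0.38 and 0.74 and PSMB9 between 0.32 and 0.64.

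**Figure D2:**
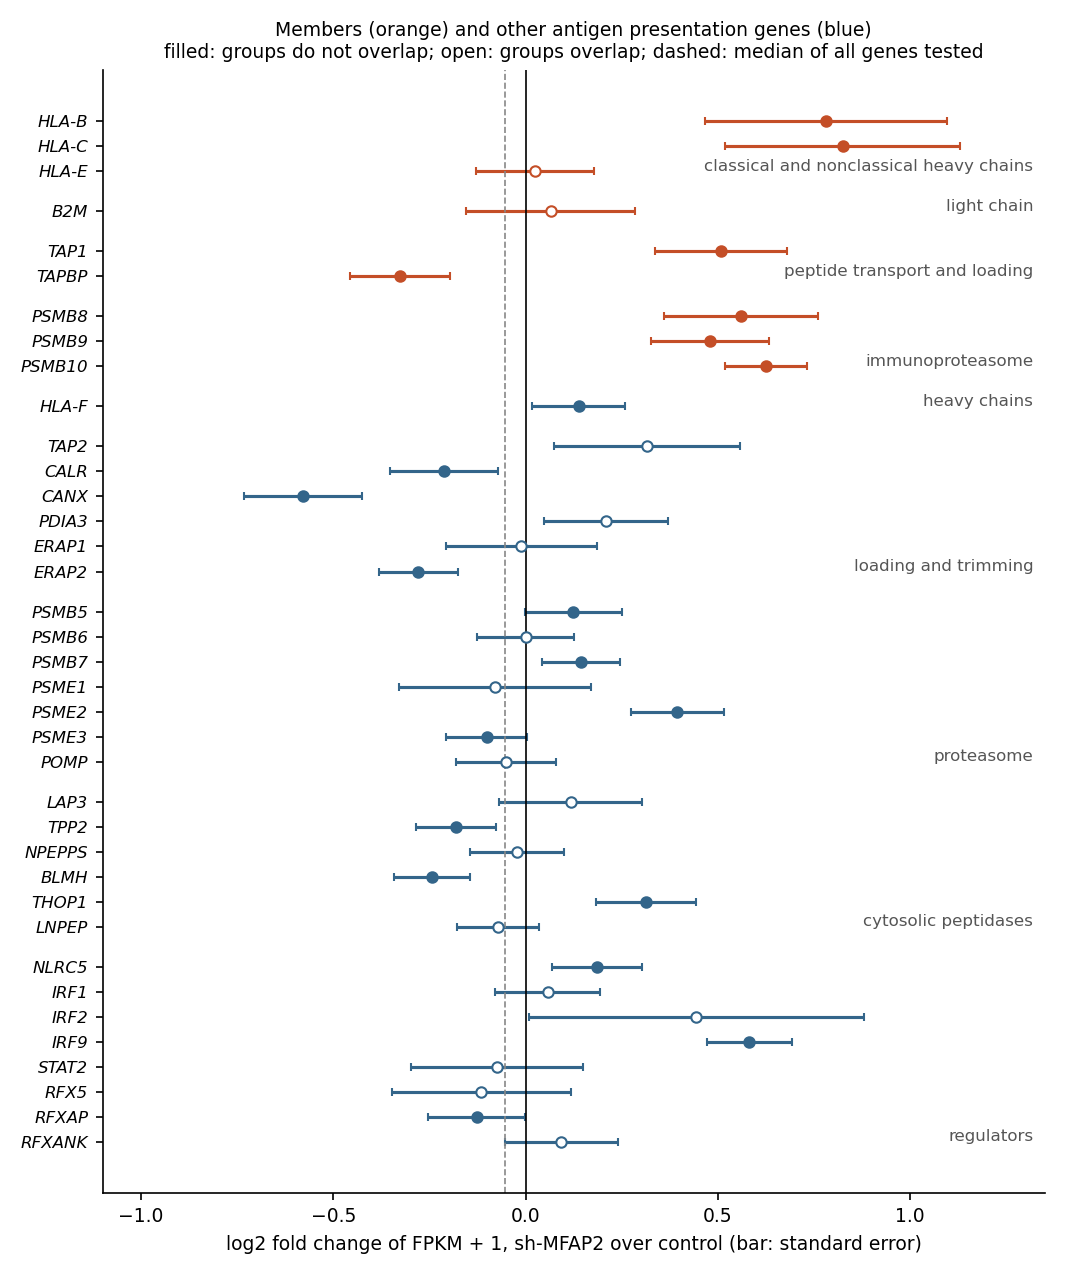
Log2 fold change of FPKM + 1 in sh-MFAP2 over control (horizontal axis) with its standard error from limma (bar), for the 9 genes (orange) and 28 of the 30 further antigen presentation genes tested (blue) grouped by role. Filled points are genes whose groups do not overlap, open points those whose groups do, and the dashed line is the median of all genes tested at -0.05; PSMB8, PSMB9 and PSMB10 lie between 0.48 and 0.63 while PSMB5, PSMB6 and PSMB7 lie at or below 0.14.

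The immunoproteasome forms by exchange of single subunits, so each inducible subunit was set against the constitutive one it replaces. PSMB5 was at 108.3 and 110.6 FPKM under sh-MFAP2 against 93.4 and 107.9 FPKM in control. PSMB6 was at 70.6 and 80.1 against 77.8 and 72.7 FPKM, and PSMB7 at 85.7 and 83.0 against 76.0 and 76.5 FPKM. In PSMB5, narrowly, and in PSMB7 both sh-MFAP2 libraries also lay above both controls, which held for 17.5% of all genes. PSMB6 overlapped between the groups. The log2 ratio of PSMB10 to PSMB7 was -2.50 and -2.36 in sh-MFAP2 and -2.91 and -3.01 in control, a difference of 0.53. For PSMB8 over PSMB5 the log2 ratios were -1.93 and -1.63 against -1.95 and -2.53, a difference of 0.46. The lower sh-MFAP2 ratio was almost level with the higher control, and without control replicate 2 that difference was 0.17. For PSMB9 over PSMB6 they were -5.04 and -5.71 against -6.34 and -6.06, a difference of 0.83. That difference was 0.49 without sh-MFAP2 replicate 1, and 0.48 with 1 FPKM added to both subunits, an alternative chosen after seeing the data. In all 3 pairs both sh-MFAP2 ratios were above both controls, and the exact two-sided permutation test gave p = 0.333, the smallest value that 2 against 2 libraries allow.

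**Figure D3:**
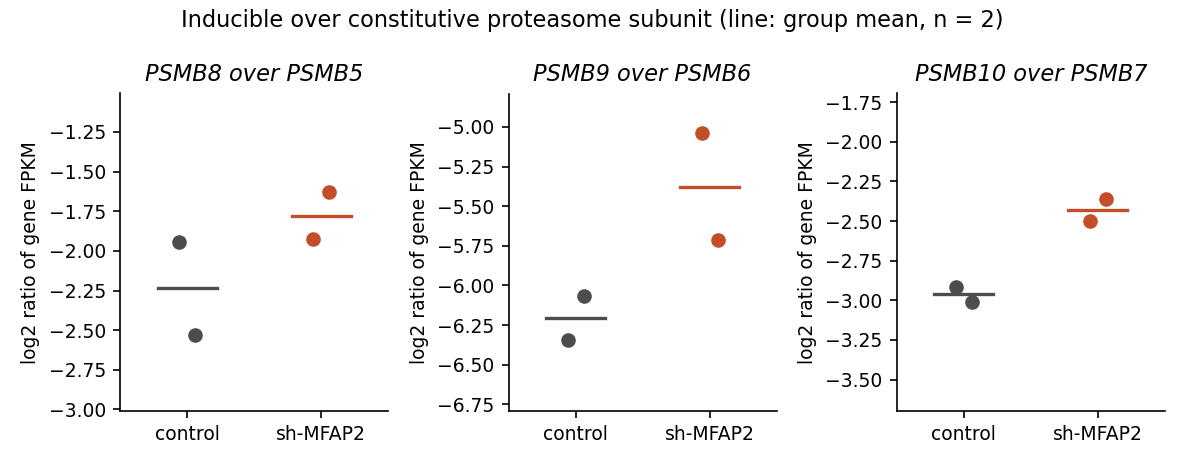
Log2 ratio of gene FPKM (vertical axis) of each inducible proteasome subunit to the constitutive subunit it replaces, in 2 control and 2 sh-MFAP2 libraries (points), with group means as lines; each panel spans the same 2 log2 units. The sh-MFAP2 points are above the control points in the 3 panels, by 0.46, 0.83 and 0.53 in the means, and the points of PSMB8 over PSMB5 nearly touch.

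Levels of different genes can be compared only per length. For this the FPKM of the listed transcripts of each gene were summed, since the deposited gene value divides by the length of all exons together and is lowered in genes with many transcripts. On that scale and over all 4 libraries, B2M was the most abundant member at 203 to 248 FPKM, apart from all others. HLA-B (40.9 to 106 FPKM), HLA-E (51.2 to 64.0 FPKM) and PSMB8 (32.0 to 61.8 FPKM) followed, with ranges that overlapped. TAP1 (15.8 to 27.9 FPKM) and PSMB10 (15.9 to 25.2 FPKM) overlapped below them. TAPBP (8.86 to 14.4 FPKM) and HLA-C (4.58 to 14.9 FPKM) overlapped in turn, and PSMB9 (3.77 to 8.47 FPKM) was lowest, overlapping with HLA-C but not with TAPBP. The inducible subunit made up 28.6% ± 2.40 (SD, n = 2) of the summed PSMB8 and PSMB5 level in sh-MFAP2 and 22.5% ± 4.998 (SD, n = 2) in control. The share of PSMB10 in PSMB10 and PSMB7 was 13.7% ± 0.773 against 10.3% ± 0.263 (SD, n = 2 each), and that of PSMB9 in PSMB9 and PSMB6 was 5.39% ± 1.72 against 3.06% ± 0.405 (SD, n = 2 each).

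The transcript table lists several transcripts for each gene, and the members differed in how steadily these were estimated. Of 53 transcripts of the 9 genes above 0 in any library, 24 had a mean of at least 1 FPKM. None of these 24 was called at the thresholds above, as was none of the 22312 transcripts tested (0%). At an unadjusted p under 0.05 the count was 2, both higher in sh-MFAP2, against 3.22% of all transcripts in that direction. Both sh-MFAP2 libraries lay above both controls for 6 of the 24 (17.8% of all transcripts) and below both for 1 (24.9% of all transcripts).

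In the proteasome, transporter and tapasin genes a single coding transcript held most of the value. The PSMB10 transcript of 1218 bases was at 21.9 and 23.5 FPKM against 13.9 and 11.6 FPKM (log2 fold change 0.79, SE 0.184, adjusted p = 0.515 in limma). The PSMB9 transcript of 782 bases was at 8.08 and 5.90 FPKM against 3.77 and 4.12 FPKM (log2 fold change 0.68, SE 0.223, adjusted p = 0.647 in limma). Both are the transcripts that passed the unadjusted threshold. The PSMB8 transcript of 1124 bases was at 40.9 and 50.8 FPKM against 33.3 and 23.2 FPKM, whereas the longer coding transcript of 1351 bases was at 6.29 and 9.65 FPKM against 6.98 and 7.55 FPKM and overlapped between the groups. TAP1 (2959 bases) was at 27.5 and 20.0 FPKM against 14.5 and 18.3 FPKM. TAPBP (3759 bases) was at 7.20 and 7.82 FPKM against 9.52 and 10.1 FPKM, which is the transcript below both controls.

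The heavy and light chains were less steady. HLA-B had a coding transcript of 1547 bases at 75.4 and 49.8 FPKM under sh-MFAP2 against 41.7 and 28.8 FPKM in control, above both controls. A retained-intron transcript of 588 bases was at 27.3 FPKM in sh-MFAP2 replicate 1 and 10.1 FPKM in control replicate 2, and was listed at 0 in the other libraries. For HLA-C the coding transcript of 1554 bases was at 5.34 FPKM in sh-MFAP2 replicate 1, was listed at 0 in sh-MFAP2 replicate 2, and was at 1.78 and 0.229 FPKM in the controls. A retained-intron transcript of 1073 bases took the larger part of HLA-C in sh-MFAP2 replicate 2 (12.2 FPKM) and control replicate 1 (7.06 FPKM), against 0.00457 and 1.21 FPKM in the others. Another coding transcript of 1536 bases was at 1.86 FPKM in control replicate 2 and was listed at 0 in the others. The 1554-base transcript by itself had a log2 fold change of 0.44 (SE 1.09, adjusted p = 0.916 in limma). With all coding transcripts summed, an alternative chosen after seeing the data, the log2 fold change of HLA-C was -0.25 in place of 0.83. That sum was 5.34 and 0 FPKM under sh-MFAP2 against 1.78 and 2.23 FPKM in control. Its mean FPKM was higher in sh-MFAP2, at 2.67 against 2.01. The negative sign thus rests on averaging log values with sh-MFAP2 replicate 2 at 0, and the direction of the coding part is not settled.

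B2M varied in the same way, since its leading coding transcript of 1715 bases was at 68.5 and 166 FPKM under sh-MFAP2 against 119 and 85.2 FPKM in control. A processed transcript of 499 bases was at 35.1 FPKM in sh-MFAP2 replicate 1 and at or below 0.347 FPKM in the others. The sum over all B2M transcripts was 215 and 248 FPKM against 212 and 203 FPKM, so that on this scale the groups did not overlap. HLA-E was steady, with 1 coding transcript of 2601 bases at 56.0 and 53.0 FPKM against 47.9 and 59.8 FPKM.

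**Figure D4:**
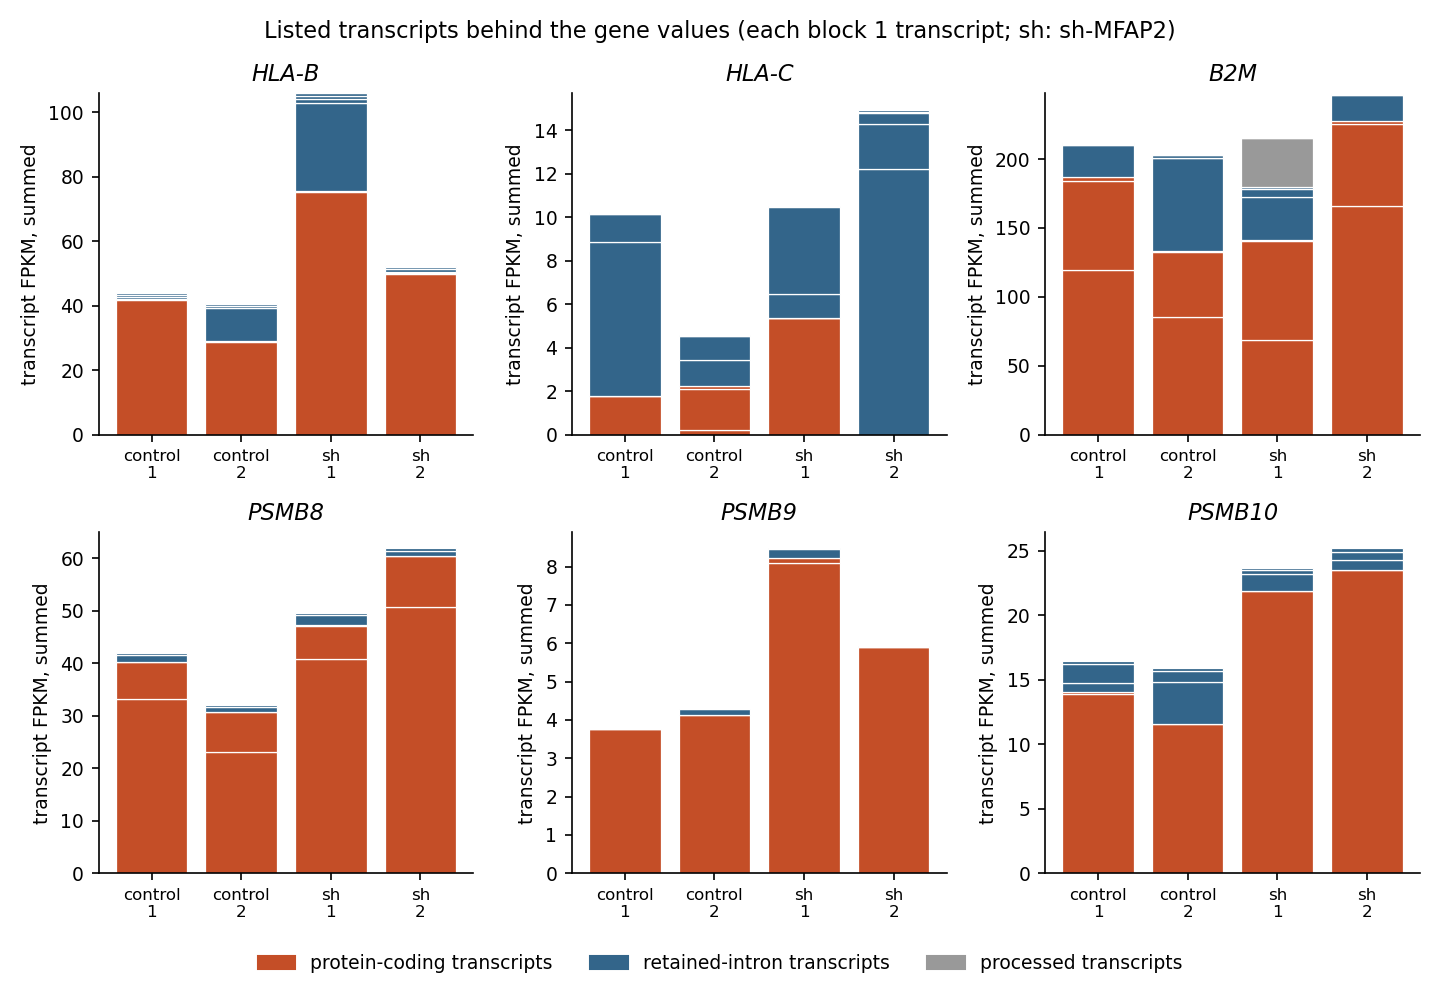
Summed FPKM of the listed transcripts (vertical axis, from 0) of 6 genes in the 2 control and 2 sh-MFAP2 libraries, each block 1 transcript, coloured as protein-coding, retained-intron or processed. In HLA-C the coding part is 5.34 FPKM in sh-MFAP2 replicate 1 and 0 in sh-MFAP2 replicate 2, whereas PSMB8, PSMB9 and PSMB10 consist mainly of coding transcripts in every library.

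Shared sequence and overlapping exons bear on some values. Of the 50-base stretches of the leading coding transcript, 6.71% in HLA-C, 5.13% in HLA-E and 2.54% in HLA-B occur exactly in another gene of GENCODE 29, and the HLA alleles of AGS cells may differ from the reference, so the heavy chain values are uncertain. In TAPBP the share was 5.99%, spread over 380 other genes, and in TAP1 it was 1.07%, and reads from these stretches cannot be told apart either. In PSMB10 the share was 38.9%, all of it in AC040162.1, a protein-coding gene model on the same strand with 0.253 and 0.469 FPKM under sh-MFAP2 against 0.197 and 0.245 FPKM in control. PSMB8 and TAP1 share 618 and 456 exonic bases with PSMB8-AS1 on the opposite strand, which was at 1.33 and 1.29 FPKM against 1.12 and 0.828 FPKM, and PSMB8 shares 139 exonic bases with PSMB9 on the opposite strand. PSMB9 shares 174 exonic bases with PSMB8-AS1 on the same strand, where strand could not separate the reads, and its own values of 0.960 to 2.14 FPKM are close to those of PSMB8-AS1. HLA-B shares 542 exonic bases with the pseudogene AL671883.2 on the opposite strand and 35 with HLA-C on the same strand. Whether the counting used strand is not given in the sources used here, so the reads of overlapping genes cannot be told apart. The leading coding transcripts of B2M, PSMB8 and PSMB9 shared no 50-base stretch with another gene.

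The other genes of the pathway, 32 listed by role, lay on both sides of 0. Of the 30 tested, 0 were called (0.273% of all genes), 2 were higher at an unadjusted p under 0.05 (3.89% of all genes) and 1 was lower (8.41% of all genes). The groups did not overlap in 15, of which 7 were higher in sh-MFAP2 (17.5% of all genes) and 8 lower (31.4% of all genes), shares near those of all genes. The counts at an unadjusted p under 0.05 changed with the library left out. The median log2 fold change of the 30 genes was -0.01, and its sign changed with the scaling and with the library left out. TAP2, the partner of TAP1 in the transporter, was at 13.0 and 8.91 FPKM against 7.38 and 9.70 FPKM and overlapped between the groups. CANX, the chaperone calnexin that folds new heavy chains, was at 74.4 and 61.4 FPKM against 95.8 and 107 FPKM, with a log2 fold change of -0.58 (SE 0.154, adjusted p = 0.370 in limma). Calreticulin (CALR), which acts in the loading complex with tapasin, was at 448 and 536 FPKM against 558 and 578 FPKM, also below both controls, as was the trimming peptidase ERAP2 at 6.12 and 6.62 against 7.87 and 8.001 FPKM.

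Of the proteasome genes outside the members, PSME2, a subunit of the interferon-inducible proteasome activator, was at 52.8 and 58.2 FPKM against 43.9 and 40.02 FPKM (log2 fold change 0.39, SE 0.121, adjusted p = 0.394 in limma). Its partner PSME1 was at 90.3 and 140.1 FPKM against 119.8 and 118 FPKM and overlapped between the groups. Of the regulators, IRF9, the DNA-binding part of the complex that type I interferon activates, was at 12.6 and 14.0 FPKM against 8.70 and 8.42 FPKM (log2 fold change 0.58, SE 0.111, adjusted p = 0.320 in limma). NLRC5, the transactivator of class I genes, was at 1.71 and 1.39 FPKM against 1.23 and 1.24 FPKM, with a log2 fold change of 0.19 (SE 0.118, adjusted p = 0.547 in limma). IRF1, a factor that interferon gamma induces, overlapped between the groups at 3.11 and 3.76 against 3.50 and 3.02 FPKM. Of 8 MHC class II genes, 7 were under 1 FPKM in all libraries, the transactivator CIITA among them. HLA-DMA, the class II peptide exchanger, was the exception at 3.75 and 3.62 FPKM against 2.05 and 2.42 FPKM (log2 fold change 0.54, SE 0.114, adjusted p = 0.330 in limma).

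The interferon response list of 35 genes, which holds none of the 9 members, was mostly higher in sh-MFAP2. Of its 29 genes tested, 0 were called, 14 were higher at an unadjusted p under 0.05 (3.89% of all genes) and 1 was lower (8.41% of all genes), with a median log2 fold change of 0.55. OASL, an antiviral protein of the oligoadenylate synthetase family, was at 26.5 and 26.8 FPKM against 13.9 and 13.9 FPKM, with a log2 fold change of 0.89 (SE 0.0983, adjusted p = 0.145 in limma). The lower gene was BST2, which encodes the virus-tethering protein tetherin, at 29.6 and 23.1 FPKM against 37.6 and 42.9 FPKM; both were named after their values were seen. The number higher fell with either control library left out, and the median log2 fold change of the list ran from 0.41 to 0.71 over the libraries left out. In the main fit, 20 of the 29 had both sh-MFAP2 libraries above both controls (17.5% of all genes). In 1 both lay below (31.4% of all genes), and 8 overlapped. Log2 fold changes in the list ran from -1.17 to 2.63. That this list was higher in the same libraries was known when the members were chosen, and it is not independent of them. Some markers of other cell types also differed between the groups. CD68, the only leukocyte marker above 1 FPKM, was at 3.13 and 3.12 FPKM against 7.85 and 7.20 FPKM. The summed leukocyte list was 3.20 to 3.23 FPKM against 7.25 to 7.93 FPKM, almost all of it CD68. The other 7 leukocyte markers were under 1 FPKM in all libraries, so the sum follows 1 gene. COL1A1, the only fibroblast marker above 1 FPKM, was at 2.27 and 2.07 FPKM against 4.36 and 4.92 FPKM. That list summed to 2.12 to 2.34 FPKM against 4.39 to 4.96 FPKM, almost all of it COL1A1. Their part in the values of the 9 genes was not tested.

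The 5 genes outside the 9 with the profile nearest to the mean profile of the members, by Euclidean distance between centred log2(FPKM + 1) values over the 4 libraries, were DNAJC1, RRP1, UNC93B1, ATP6V0E1 and ERMARD. The nearest was DNAJC1, at a distance of 0.0343, with 41.8 and 40.3 FPKM against 33.0 and 29.9 FPKM. The mean profile itself was 0.22 and 0.17 in sh-MFAP2 replicates 1 and 2 and -0.15 and -0.24 in control replicates 1 and 2. With 4 libraries in 2 groups, any gene that separates the groups with little spread has a profile of this kind.

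The directions of the members are set here beside the exact ISRE-like matches described above. Whether the element bears on these directions was not tested. An element with other letters, or outside the windows, was not counted. Of the 5 genes with a match, TAP1, PSMB8 and PSMB10 had both sh-MFAP2 libraries above both controls, TAPBP had both below and B2M overlapped. Of the 3 genes with windows but no match, HLA-B, HLA-C and PSMB9, all had both sh-MFAP2 libraries above both controls. PSMB9 faces TAP1 across the stretch between their RefSeq starts. The nearest ISRE-like match of the TAP1 window lay 354 bases from the RefSeq start of PSMB9, beyond the 250 bases read for that gene.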

How the data were processed

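RNA-seq values of AGS cells were used as the authors deposited them, 1 table of genes and 1 of transcripts with 1 FPKM column for each of 4 libraries. The deposited FPKM values were taken as such from the values themselves. The submitters' processing notes name hg38; the aligner, the program, the filters and the annotation are not given in the sources used here. Library preparation followed standard Illumina protocols from Trizol RNA. Depth is not stated in the files and was inferred from the steps between low values, of which 59.1% to 62.2% fell within 0.05 of a whole step (10% by chance), too few to recover reads for single genes, so no counting intervals are given.

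The test was limma 3.58.1 (R 4.3.3), run on log2(FPKM + 1) of the 9873 genes whose mean reached 1 FPKM, with eBayes set to follow the variance trend and p-values adjusted by Benjamini-Hochberg over these genes; transcripts were treated likewise. The random variance model of the study was not run. Calls needed p under 0.01 and adjusted p under 0.05, as in the study's methods. Single ratios were compared with an exact permutation test in scipy 1.17.1. The fit was tested on simulated data. The members, gene lists and tests were chosen with earlier results of these data known. The genes named are the members, the genes of the antigen presentation and class II lists that passed an unadjusted p under 0.05 or moved by more than 0.5 on the log2 scale, others of the lists as context, and the 5 genes of nearest profile. The interferon list is given by its counts and 2 examples. Motifs and promoters were read from RefSeq GRCh38.p14 and positions from GENCODE 29. Alternatives were filters, pseudocount, scaling, the replicate block, no trend, sums of identifiers or transcripts and leaving out each library. Protein sequences were not analysed here. Some listed genes are counted in the lists but not reported here by name.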

Additional observations from a re-analysis of the deposited data

How the results depend on the processing

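No member was called under any of the 14 alternative fits. Of the 9 members, 3 passed under the looser rule of an unadjusted p under 0.05, where 1214 genes in all did. Scaling moved that number of members to 5, both by quantile normalization and by median of ratios, and it ran from 0 to 4 with each library left out, 0 without control replicate 2 and 1 without sh-MFAP2 replicate 1. Calls among all genes numbered 6 unfiltered, 9 at a minimum mean of 5 FPKM (HLA-C and PSMB9 were then not tested), 0 with the replicate block and 0 with each library left out, against 27; with 1 library in a group the lone library is assumed to vary like the others. The deviations of same-numbered libraries were hardly correlated (-0.0572 over 9873 genes). This cannot show whether those libraries were handled together. Under the block 3 members (HLA-B, HLA-C and PSMB10) were higher at an unadjusted p under 0.05, as were 256 of all genes.

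The median log2 fold change of the members ran from 0.35 (without sh-MFAP2 replicate 1) to 0.58 over the libraries left out and from 0.50 to 0.58 over the other alternatives, and TAPBP, HLA-B, TAP1, PSMB8, PSMB9 and PSMB10 kept their direction in every fit that tested them. Groups that do not overlap are easier to reach with 1 library in a group, so that count is not compared over the libraries left out. HLA-C turned to -0.25 with the coding transcripts summed, B2M to -0.20 without sh-MFAP2 replicate 2, and HLA-E to -0.01 with sh-MFAP2 replicate 1 left out and -0.13 with control replicate 1 left out, their ranges reaching up to 0.33 for B2M and 0.18 for HLA-E. For HLA-C the coding sum was 0 FPKM in sh-MFAP2 replicate 2, while its mean FPKM was not lower in sh-MFAP2. The cause of the other turns was not tested. The wider antigen presentation list had its median at 0.0402 under quantile normalization, 0.0387 under median of ratios, and -0.0516 to 0.0452 with each library left out, so its sign is not settled. Quantile normalization moved the median of all genes from -0.05 to -8.7e-05. The interferon list had a median of 0.42 unfiltered, 0.70 at a minimum mean of 5 FPKM, 0.68 with a pseudocount of 0.1 and 0.41 to 0.71 with each library left out. The subunit ratio differences ran from 0.17 to 0.75 for PSMB8, 0.49 to 1.16 for PSMB9 and 0.46 to 0.60 for PSMB10 over the libraries left out, and that of PSMB9 was 0.48 with 1 FPKM added to both subunits. Reads behind single genes were not recovered, so what depth limits was not measured.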
